A study of Mus musculus with 12 samples.

Results

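Rimkla, Rimklb, Nat8l, Aspa, Folh1, Abat and Aldh5a1, 7 genes of N-acetylaspartate (NAA) and γ-aminobutyric acid (GABA) metabolism, were followed through atria and ventricles of a mouse model of myotonic dystrophy type 1. They are 7 of the 51826 entries of the count table, matched by gene symbol, and all 7 were found. Rimkla and Abat were chosen by their higher levels in CUG960 ventricles, and the other 5 members because they act in the same pathways. The ventricular values of the members are therefore given as a description without a test, and the tests are those of atria, of the chambers of the controls and of the chamber by genotype difference. The set of genes was put together with earlier results of these data known, so these tests are not independent of that choice.

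CUG960 mice were homozygous for TREDT960I, a transgene that carries 960 interrupted CTG repeats behind a tetracycline response element, and hemizygous for MHCrtTA, in which the αMHC promoter drives a reverse tetracycline transactivator in cardiomyocytes. The controls were hemizygous for MHCrtTA and had no repeat transgene, so both groups carried the transactivator. All 6 mice were FvB females, were fed doxycycline (dox) from postnatal day 1 and were 10 weeks old. Atria and ventricles of 3 CUG960 +dox mice (V119, V120 and V123) and 3 MHCrtTA +dox controls (V327, V333 and V334) gave 12 RNA-Seq libraries in 4 groups. The controls came from other matings than the CUG960 mice, and an effect of the litter cannot be told apart from that of the repeat. Libraries held between 116127966 and 160676189 counts, so that a level of 1 CPM (counts scaled to library size by the TMM method) stood for 106 to 174 counts. The labelled chambers carried their markers: 4 atrial cardiomyocyte genes (Myl7, Myl4, Sln and Nppa) summed to 26244 CPM in atria and 99.5 CPM in ventricles of controls, and 4 ventricular ones (Myl2, Myl3, Irx4 and Myh7) to 1089 and 16606 CPM. Myh7 made up 1059 CPM of the ventricular marker sum in control atria.

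NAA is made from aspartate and acetyl-CoA and is best known from neurons, where its ligation to glutamate gives the dipeptide N-acetylaspartylglutamate (NAAG), a neuromodulator. NAA is taken apart again to acetate and aspartate, and NAAG is cleaved outside the cell. GABA, the main inhibitory transmitter of the brain, is broken down in mitochondria to succinic semialdehyde and then to succinate, which enters the citric acid cycle, and the transaminase of that route also accepts β-alanine.

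Rimkla and Rimklb both encode NAAG synthetases, and of the 7 genes Rimkla had the largest fitted change between CUG960 mice and controls, in ventricles the one it was chosen for, while Rimklb was almost absent from ventricles. Sequences before their RefSeq start sites in GRCm38.p6 are shown for this contrast, 5′ to 3′ on the minus strand, with motif matches in capitals. For Rimkla the sequence is the part of the 250 bases before the start that lies outside GENCODE M21 exons, 220 bases. For Rimklb all 250 bases before the start are printed, chr6:122486306-122486555. Only the first 50 of them, the coordinates in its label, lie outside GENCODE M21 exons. The last of its marked GC boxes lies in the exonic part. The RefSeq start lies 30 bases inside the GENCODE gene for Rimkla and 12456 bases inside it for Rimklb, so the Rimklb window is at an internal start, and the other 200 bases of it are exonic in GENCODE.
Rimkla, chr4:119492629-119492848: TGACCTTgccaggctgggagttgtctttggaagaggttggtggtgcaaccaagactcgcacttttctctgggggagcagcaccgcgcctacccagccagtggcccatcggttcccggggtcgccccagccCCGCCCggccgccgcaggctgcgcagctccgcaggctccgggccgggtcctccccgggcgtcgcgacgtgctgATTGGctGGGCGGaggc
Rimklb, chr6:122486506-122486555: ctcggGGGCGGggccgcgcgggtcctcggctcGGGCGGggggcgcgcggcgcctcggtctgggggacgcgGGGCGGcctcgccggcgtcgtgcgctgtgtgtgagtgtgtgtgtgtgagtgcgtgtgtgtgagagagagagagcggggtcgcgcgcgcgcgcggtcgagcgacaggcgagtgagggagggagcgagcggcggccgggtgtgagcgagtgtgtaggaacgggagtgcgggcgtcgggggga
Matches to 6 motifs were searched on both strands in the 300 bases from 250 before to 50 after the start, in these promoters and in all 32851 promoters of the same length. The CCAAT box (CCAAT) was held by 37.4% of all promoters and the GC box (GGGCGG) by 35.7%. The TATA box (TATAAA) was held by 13.6%, an E-box (CACGTG) by 7.15% and a cAMP response element (TGACGTCA) by 1.79%. A nuclear receptor half-site (AAGGTCA), added to the search after the Rimkla sequence had been read, was held by 4.72%. Rimkla held this half-site as its reverse complement, starting 250 bases before the start site, GC boxes at 120 bases (reverse) and 40 bases before it and a reverse CCAAT box at 47 bases, and these matches did not overlap. Rimklb held 3 GC boxes, at 245, 218 and 180 bases before the start. Neither window held the TATA box, the E-box or the cAMP response element in these letters. Both windows were rich in GC, at 73.3% with 36 CpG for Rimkla and 76.3% with 47 CpG for Rimklb, against a median of 52.7% and 7 CpG over all promoters. A promoter sequence was matched for 5 of the 7 members, and a motif match is a description and not a binding site.

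Rimkla, which joins NAA to glutamate, was upregulated in CUG960 atria. The gene lies at chr4:119465283-119492628 on the minus strand (GRCm38, GENCODE M21). In atria of controls its level was 1.23, 1.86 and 1.83 CPM, and in CUG960 atria it was 9.86, 8.26 and 14.2 CPM. The groups did not overlap, and the lowest CUG960 atrium was well above the highest control. The log2 fold change was 2.71 ± 0.24 (SE), or 6.54-fold, with an adjusted P value of 0.00052 by edgeR's quasi-likelihood test, and it ranked 14 by upregulation among the 13097 genes that averaged 1 CPM or more. Across the fits that left out 1 mouse, its log2 fold change was 2.45 to 2.87, with adjusted P values of 0.0015 to 0.0036.

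In ventricles, where Rimkla had been chosen, its level was 0.818, 0.785 and 0.953 CPM in controls and 15.6, 12.7 and 13.9 CPM in CUG960 mice. The log2 fold change was 4.04 ± 0.14 (SE), or 16.4-fold, and ranked 4 among 13080 genes. These 3 control libraries held 91, 83 and 107 Rimkla counts, so the low level was well above the 3 counts used as the floor. CPM levels are scaled over all 12 libraries, whereas fold changes come from a fit of each chamber, so the ratio of the printed levels can differ slightly from the fitted fold change.

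**Figure D1:**
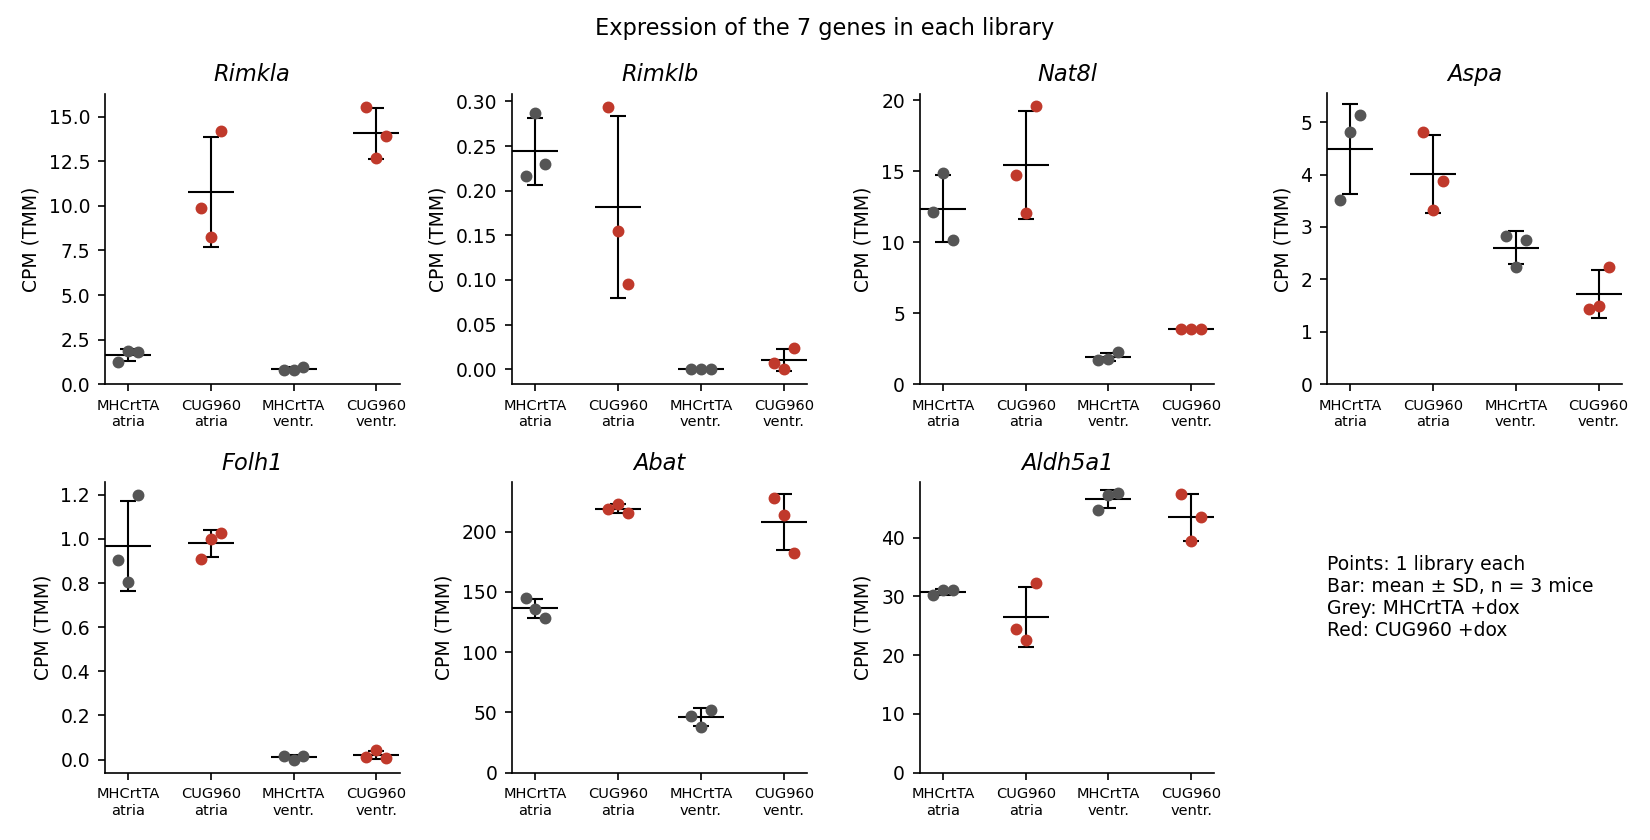
Level of each of the 7 genes in CPM (TMM-scaled, linear axis per gene) in the 4 groups, with points for libraries, lines for means and error bars for the SD of 3 mice. The CUG960 points of Rimkla and Abat lie above the controls in both chambers, and those of Rimklb, Aspa, Folh1 and Aldh5a1 overlap with the controls in both, while Nat8l overlaps in atria only.

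Abat encodes GABA transaminase, the mitochondrial enzyme that starts the breakdown of GABA and also acts on β-alanine. It lies at chr16:8513429-8621568 on the plus strand. In atria its level was 145, 136 and 128 CPM in controls and 219, 223 and 215 CPM in CUG960 mice. All 3 CUG960 atria were above all 3 controls, by a margin larger than the spread within either group. The log2 fold change was 0.68 ± 0.062 (SE), or 1.60-fold, with an adjusted P value of 0.00057 by edgeR, and it ranked 348 of 13097 genes. Leaving out each mouse gave 0.64 to 0.72, with adjusted P values of 0.0019 to 0.0043.

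In ventricles Abat stood at 47.4, 37.9 and 52.4 CPM in controls and at 228, 214 and 182 CPM in CUG960 mice. The log2 fold change was 2.17 ± 0.13 (SE), or 4.51-fold, and ranked 26 of 13080 genes. CUG960 ventricles thus held Abat at 208 ± 23.4 CPM (SD, n = 3), close to the 219 ± 3.67 CPM of CUG960 atria, whereas control ventricles held 45.9 ± 7.38 CPM against 136 ± 8.13 CPM in control atria.

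Rimkla and Abat were the members past the threshold in atria, an adjusted P value under 0.05 with a fold change of at least 1.5, so that 2 of 7 members were called higher and 0 lower. Both had been chosen by their ventricular levels in the same 6 mice. None of the 5 members not chosen on their values was called in atria. Of the 17650 genes tested in atria, 5.49% were called, 3.37% higher and 2.12% lower. Non-overlapping groups are less selective, since 35.7% of the genes tested had them. With DESeq2 the same 2 members were called. In ventricles 5 members were tested, and 3 of them, Rimkla, Abat and Nat8l, had changes past the threshold, where the background was 4.75% of 16909 genes. With DESeq2, or without V123, Aspa was past it too, which made 4. The rule used that contrast, and nothing is read from this count. The atrial libraries came from the same 6 mice and are separate measurements, not separate animals.

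**Figure D2:**
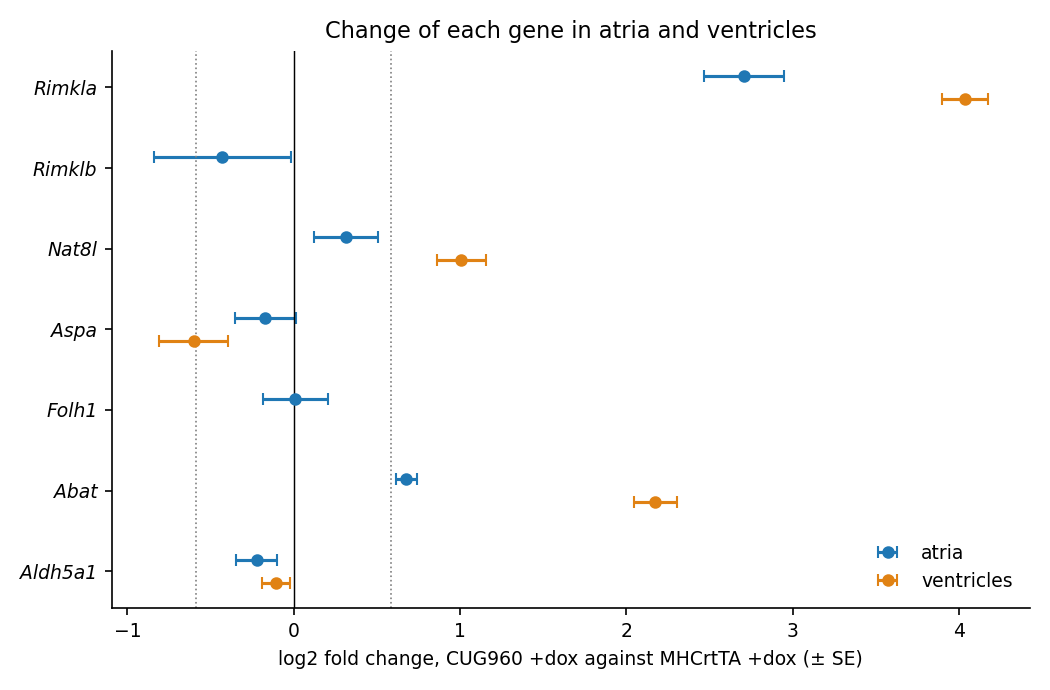
Fitted log2 fold change (± SE) of CUG960 +dox against MHCrtTA +dox for each of the 7 genes, with atria in blue, ventricles in orange and dotted lines at a fold change of 1.5 in either direction. Rimkla (2.71 and 4.04) and Abat (0.68 and 2.17) lie to the right of the limit in both chambers, and Rimklb and Folh1 have no ventricular point because they were not tested there.

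The 4 other members of the NAA route, Nat8l, Aspa, Folh1 and Rimklb, did not pass the test in atria. Nat8l makes NAA from aspartate and acetyl-CoA and lies at chr5:33995984-34005916. Its level was 12.1, 14.8 and 10.1 CPM in control atria and 14.7, 12.04 and 19.6 CPM in CUG960 atria, and the groups overlapped. The log2 fold change of 0.31 ± 0.19 (SE) did not pass the test, with an adjusted P value of 0.31. In ventricles Nat8l was lower in controls, at 1.73, 1.78 and 2.27 CPM, and stood at 3.90, 3.86 and 3.89 CPM in CUG960 mice, a log2 fold change of 1.01 ± 0.15 (SE). The groups did not overlap, as in 31.2% of the genes tested in ventricles. The CUG960 ventricles were nearly equal, and they stayed below every atrial library.

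Aspa encodes aspartoacylase, which splits NAA into acetate and aspartate, and lies at chr11:73304992-73329596. In atria it was at 3.51, 4.81 and 5.13 CPM in controls and 4.80, 3.33 and 3.88 CPM in CUG960 mice, overlapping, with a log2 fold change of −0.17 ± 0.18 (SE) and an adjusted P value of 0.58. In ventricles it was at 2.82, 2.24 and 2.74 CPM in controls and 1.44, 1.49 and 2.24 CPM in CUG960 mice. There the lowest control and the highest CUG960 library met at 2.24 CPM, and the log2 fold change was −0.60 ± 0.21 (SE). The enzyme that makes NAA and the one that degrades it thus had fitted changes of opposite sign in ventricles, 1.01 and −0.60, given here as a description. The change of Aspa was not past the threshold there by edgeR.

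Folh1 encodes glutamate carboxypeptidase II, which cleaves NAAG, and lies at chr7:86718977-86775943. It was at 0.905, 0.803 and 1.198 CPM in control atria and 0.910, 1.001 and 1.03 CPM in CUG960 atria. The log2 fold change was 0.01 ± 0.20 (SE), with an adjusted P value of 0.98, and its sign changed with the mice included. In ventricles Folh1 had 2, 0 and 2 counts in controls and 2, 6 and 1 counts in CUG960 mice, too few to be tested.

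Rimklb, the NAAG synthetase that can also use citrate, lies at chr6:122447296-122498761 and was low in all 12 libraries. Control atria held 33, 50 and 36 counts (0.216, 0.287 and 0.229 CPM) and CUG960 atria 42, 24 and 13 counts (0.294, 0.155 and 0.0960 CPM). The groups overlapped, and the log2 fold change of −0.43 ± 0.41 (SE) had an adjusted P value of 0.53. In ventricles it had 0, 0 and 0 counts in controls and 1, 0 and 3 in CUG960 mice, all at or under the floor, and was not tested. Of the pair of NAAG synthetases, Rimkla passed the test in atria and Rimklb did not, and the difference between their changes was not tested. The level of Rimkla per kilobase was above that of Rimklb in all 4 groups.

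Aldh5a1 encodes succinic semialdehyde dehydrogenase, the step after Abat, and lies at chr13:24907579-24937661. Its atrial level was 30.2, 31.0 and 31.2 CPM in controls and 24.5, 22.7 and 32.4 CPM in CUG960 mice. V123 lay above the controls and the other CUG960 atria below them, and the log2 fold change of −0.22 ± 0.12 (SE) did not pass the test (adjusted P value 0.26). Without V123 it was −0.40, with an adjusted P value of 0.012, which is under the fold change limit. In ventricles Aldh5a1 was at 44.8, 47.3 and 47.6 CPM in controls and 47.5, 39.5 and 43.5 CPM in CUG960 mice, a log2 fold change of −0.10 ± 0.085 (SE).

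The step that takes GABA and the step after it therefore had different fitted changes. Per kilobase of exon, the level of Abat divided by that of Aldh5a1 was 3.23 ± 0.245 in control atria, 6.17 ± 1.19 in CUG960 atria, 0.719 ± 0.118 in control ventricles and 3.50 ± 0.445 in CUG960 ventricles (mean ± SD, n = 3 each). In ventricles the ratio was 0.584 to 0.802 in controls and 3.06 to 3.95 in CUG960 mice, and in atria it was 3.01 to 3.49 and 4.85 to 7.16. Control ventricles were the only group in which the ratio was under 1, and this side of 1 depends on the length used. With the longest transcript as the length, control ventricles held 9.91 CPM per kb of Abat and 8.25 CPM per kb of Aldh5a1, whereas the order of the 4 groups does not depend on the length.

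Levels per kilobase of all annotated exons (CPM per kb) put the 7 genes in order. In control atria Abat (17.6) came first, followed by Aldh5a1 (5.45), Nat8l (1.85), Aspa (0.753), Rimkla (0.394), Folh1 (0.302) and Rimklb (0.0434). Only Rimkla and Folh1 overlapped as neighbours in that order. In CUG960 atria Rimkla (2.59) stood next to Nat8l (2.31), with which it overlapped, although per kilobase of coding sequence Nat8l (17.2) was above Rimkla (9.45). In control ventricles the order was Aldh5a1 (8.25), Abat (5.93), Aspa (0.437), Nat8l (0.289) and Rimkla (0.205), and none of these neighbours overlapped. The first place there depends on the length. Abat was above Aldh5a1 per kilobase of longest transcript (9.91 against 8.25) and of coding sequence (30.6 against 29.7). In CUG960 ventricles Abat (26.9) was first again, and Rimkla (3.38) followed Aldh5a1 (7.70) as the third, above Nat8l (0.582) and Aspa (0.289).

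The chambers of the controls were compared by a test for Nat8l, Aspa and Aldh5a1, which had counts in both. Nat8l was lower in ventricles than in atria by a log2 fold change of −2.67 ± 0.17 (SE, adjusted P value 5.5e-06 by edgeR). Aspa was lower too, at −0.78 ± 0.17 (SE, adjusted P value 0.0053). Aldh5a1 was higher in ventricles, at 0.61 ± 0.060 (SE, adjusted P value 5.8e-05). Folh1, with 138, 140 and 188 counts in atria and 2, 0 and 2 in ventricles, and Rimklb, with 0 ventricular counts, passed the filter on low counts through atria alone, and no test is given for them. Against 3 counts per library, Rimklb was at least 8.61-fold lower in ventricles. For Rimkla and Abat this contrast uses the control ventricles of the choice, and the values of −0.93 ± 0.22 and −1.56 ± 0.11 (SE) are a description.

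Chamber differences were common among all genes, with 34.9% of 17451 genes called, 18.3% lower and 16.6% higher. Without V333 the call of Aspa was lost (adjusted P value 0.057), and with upper quartile scaling Aldh5a1 fell under the fold change limit, at 0.58.

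Since each mouse gave both chambers, the ventricle to atrium ratio of CPM could be taken within the animal. For Abat it was 0.328, 0.279 and 0.408 in V327, V333 and V334 and 1.04, 0.959 and 0.847 in V119, V120 and V123. For Rimkla it was 0.667, 0.422 and 0.521 in controls and 1.58, 1.54 and 0.981 in CUG960 mice. In both genes every CUG960 ratio lay above every control ratio, a description because the ratios contain the ventricular values of the choice. Over 16378 genes, 19.9% had ratios that did not overlap between the genotypes. The ratio of Aldh5a1 was above 1 in all 6 mice, at 1.51 ± 0.0257 in controls and 1.67 ± 0.304 in CUG960 mice (mean ± SD, n = 3). Nat8l stayed well below 1, at 0.162 ± 0.0549 and 0.261 ± 0.0609, and Aspa at 0.601 ± 0.178 and 0.441 ± 0.139, each with overlapping groups.

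**Figure D3:**
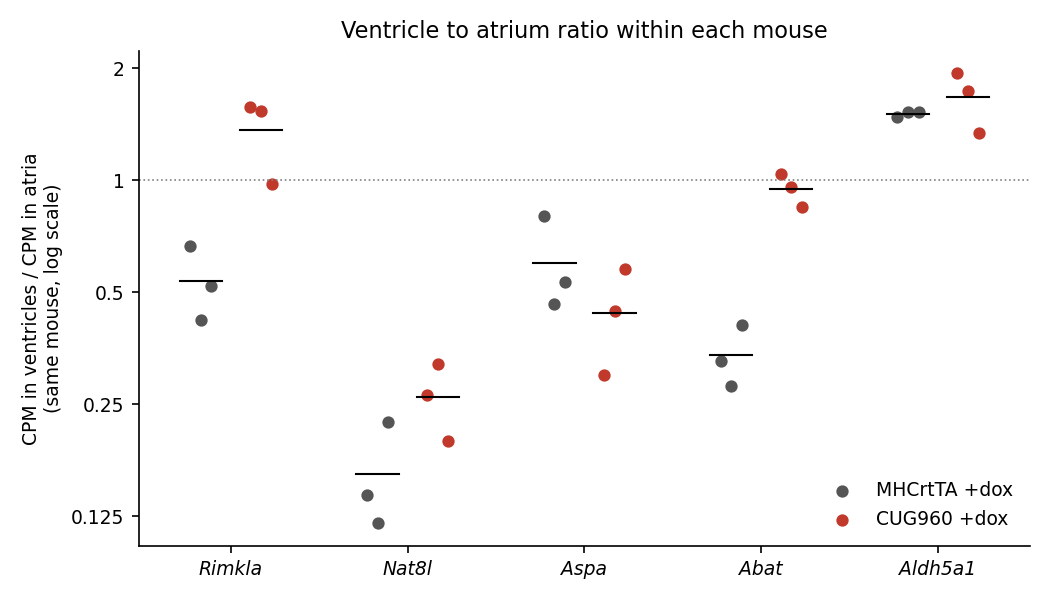
Ratio of the ventricular to the atrial CPM of each mouse on a log axis, for the 5 genes with enough ventricular counts, with grey points for MHCrtTA +dox, red points for CUG960 +dox and lines for means. For Rimkla and Abat the 3 CUG960 mice lie above the 3 controls, for which all ratios are under 1, while the groups overlap for Nat8l, Aspa and Aldh5a1.

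The test of whether the genotype effect differed between chambers was fitted on all 12 libraries. Over 18327 genes, 1.38% had an adjusted P value under 0.05. For Nat8l, Aspa and Aldh5a1, the difference of the ventricular from the atrial log2 fold change did not pass. It was 0.69 ± 0.25 (SE) for Nat8l (adjusted P value 0.27), −0.43 ± 0.29 for Aspa (0.61) and 0.12 ± 0.16 for Aldh5a1 (0.84). Folh1 and Rimklb had too few ventricular counts for this difference to be read. For Rimkla and Abat the difference was 1.33 ± 0.29 and 1.49 ± 0.15 (SE), a description because it contains the ventricular contrast on which they were chosen.

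The other genes of the pathways were followed in 4 lists of 76 genes. Of these, 55 were tested in atria, with 5 called higher and 1 lower, against 3.37% and 2.12% of all genes. In ventricles 54 were tested, with 3 higher and 3 lower, against 3.0% and 1.76%. Some of them reached the minimum of the filter on low counts in all 3 libraries of 1 genotype only, 2 in atria and 4 in ventricles, and a call of such a gene is in part set by the filter. Without them 53 genes were left in atria, with 4 higher and 1 lower, against 3.02% and 2.12% of all genes left. In ventricles 50 were left, with 2 higher and 3 lower, against 2.81% and 1.73%. Their median log2 fold change was −0.05 in atria and 0.05 in ventricles, and that of all genes left was −0.01 in both. The single lists were counted without these genes, for which no test is given.

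In the list of NAA, NAAG and aspartate genes, 19 were tested in atria, 1 was called higher and 1 lower, and the median log2 fold change was −0.05. In ventricles 18 were tested, 0 were higher and 1 lower, and the median was 0.09. Acy3, an aminoacylase that deacetylates N-acetylated amino acids, fell in both chambers. In atria it was at 41.9, 41.8 and 40.1 CPM in controls and 25.3, 25.7 and 24.4 CPM in CUG960 mice, a log2 fold change of −0.72 ± 0.055 (SE, adjusted P value 0.00024). In ventricles its log2 fold change was −0.59 ± 0.13 (SE, adjusted P value 0.023), at the limit, and it fell below the threshold in 4 of 6 fits without a mouse. Slc25a13, a mitochondrial aspartate and glutamate carrier, rose in atria from 54.7, 45.8 and 44.9 CPM to 75.3, 85.2 and 84.0 CPM (0.74 ± 0.088 SE, adjusted P value 0.0018). In ventricles its change of 0.33 ± 0.070 (SE, adjusted P value 0.020) was under the fold change limit. Got2, the mitochondrial aspartate aminotransferase and most abundant gene of the list, was at a mean of 719 CPM over the 12 libraries and was not called.

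In the list of GABA and glutamate metabolism, 17 genes were tested in atria and 0 passed the threshold by edgeR, where 7 had an unadjusted p under 0.05, as had 30.2% of all genes tested in atria. The median was −0.09. In ventricles 16 were tested, 0 were called higher and 1 lower, with a median of −0.09. The gene called there was Aldh9a1, an aldehyde dehydrogenase that can form GABA from γ-aminobutyraldehyde. It was at 27.0, 24.6 and 21.9 CPM in control ventricles and 14.9, 15.3 and 15.7 CPM in CUG960 ventricles, a log2 fold change of −0.68 ± 0.097 (SE, adjusted P value 0.0032). In atria it was −0.44, with an adjusted P value of 0.038 and under the fold change limit. Without that limit, 3 genes of the list were higher and 1 lower in atria by edgeR, against 1404 and 1169 of all 17650. In ventricles 1 was higher and 2 lower, against 969 and 711 of all 16909. Gad1, a glutamate decarboxylase that makes GABA, had an atrial log2 fold change of −0.25 ± 0.93 (SE, adjusted P value 0.89), and its homolog Gad2 had too few counts to be tested. Ogdh, a subunit of the oxoglutarate dehydrogenase complex and most abundant gene of the list, was at a mean of 1731 CPM and was not called.

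The β-alanine and carnosine list shares Abat's second substrate. It had 9 genes tested in each chamber, 1 called higher and 0 lower in each, with medians of 0.02 and −0.10. Upb1, the β-ureidopropionase that makes β-alanine from pyrimidine breakdown, rose in both chambers. In atria it was at 1.36, 1.09 and 1.29 CPM in controls and 3.49, 2.94 and 2.998 CPM in CUG960 mice (log2 fold change 1.33 ± 0.15 SE, adjusted P value 0.0013). In ventricles it was at 1.86, 2.34 and 2.05 CPM and 4.84, 3.58 and 4.59 CPM (1.05 ± 0.16 SE, adjusted P value 0.0046). The groups did not overlap in either chamber, and Upb1 stayed past the threshold without any 1 mouse.

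Gadl1, a decarboxylase that can form β-alanine from aspartate, was at 14, 15 and 8 counts in control atria and 36, 41 and 29 counts in CUG960 atria. In ventricles it was at 4, 5 and 5 counts in controls and 13, 13 and 21 in CUG960 mice. It met the filter through the CUG960 libraries in both chambers, and its values are a description. Csad, a related decarboxylase of taurine synthesis, had changes of 0.52 in atria (adjusted P value 0.0089) and 0.50 in ventricles (adjusted P value 0.015), both under the fold change limit. Hibadh, the most abundant gene of the list at a mean of 239 CPM, was not called.

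Genes of GABA receptors were the lowest of the 4 lists, with 16 of 20 under 1 CPM in every library and 2 without a count. Gabbr1, a subunit of the metabotropic GABA-B receptor, was the most abundant, at a mean of 7.30 CPM, and was not called. In atria 8 were tested, 2 were called higher and 0 lower, with a median log2 fold change of 0.25. In ventricles 7 were tested, 1 was called higher and 1 lower, with a median of 0.13.

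Gabrg3, which encodes a γ subunit of the ionotropic GABA-A receptor, was at 37, 22 and 21 counts in control atria and 55, 72 and 68 counts in CUG960 atria (1.42 ± 0.32 SE, adjusted P value 0.023). In ventricles it was at 2.40, 2.12 and 2.43 CPM in controls and 11.2, 4.41 and 4.31 CPM in CUG960 mice (1.52 ± 0.34 SE, adjusted P value 0.024). V119 stood far above the other CUG960 ventricles, and without it the ventricular log2 fold change was 0.91, with an adjusted P value of 0.011. The atrial call was lost in 5 of 6 fits without a mouse and the ventricular one in 3 of 6.

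Gabrb2, a β subunit, had 1, 0 and 4 counts in control ventricles and 19, 33 and 37 in CUG960 ventricles. It met the filter through the CUG960 ventricles alone, and no test is given. Gabrr1 and Gabrr2 encode ρ subunits. Gabrr1 was at 149, 141 and 117 counts in control atria and 177, 218 and 185 in CUG960 atria and was called higher (0.66 ± 0.17 SE, adjusted P value 0.037), a call lost in 5 of 6 fits without a mouse. Gabrr2 was at 72, 88 and 115 counts in control ventricles and 54, 63 and 56 in CUG960 ventricles and was called lower (−0.98 ± 0.26 SE, adjusted P value 0.044), a call lost in all 6.

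**Figure D4:**
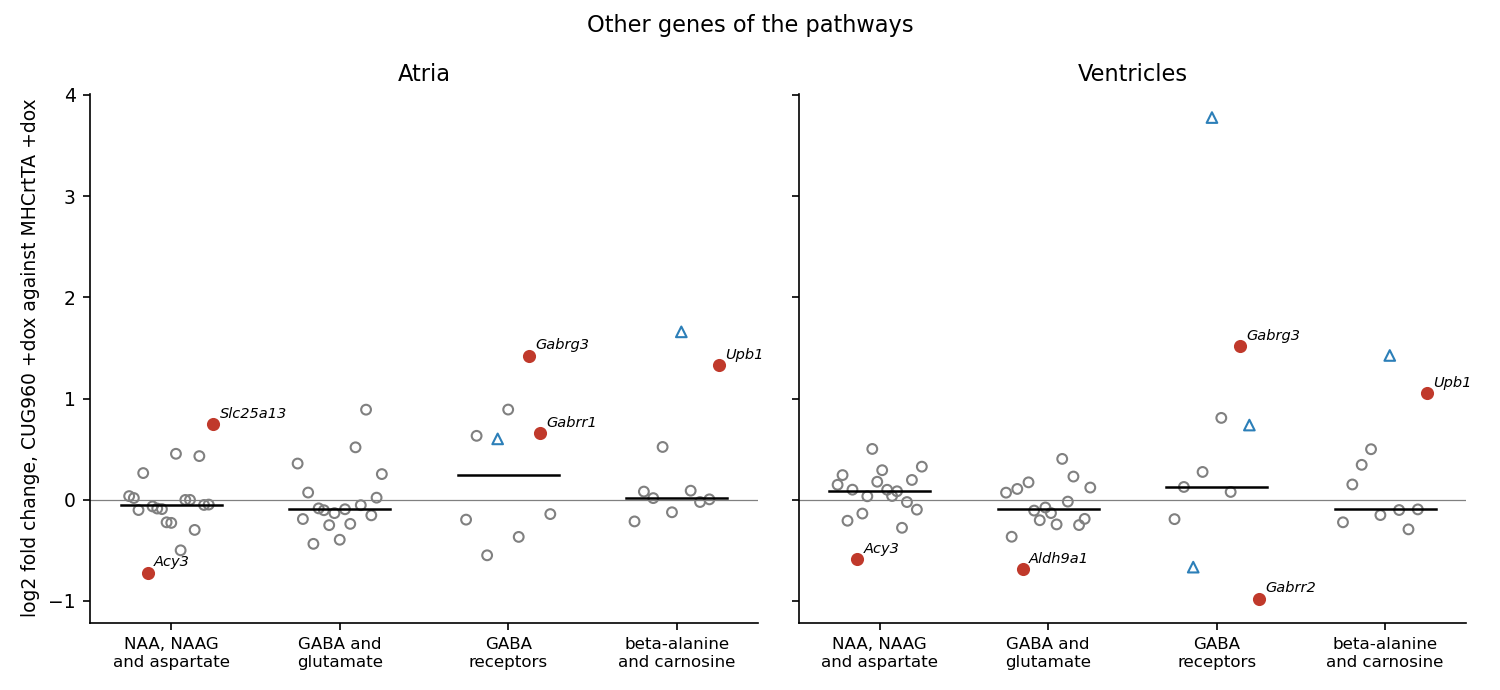
Log2 fold change of CUG960 +dox against MHCrtTA +dox for the tested genes of the 4 pathway lists in atria and ventricles, with filled red points for genes past the threshold, open points for the rest, blue triangles for genes that met the filter on low counts in 1 genotype only and lines for list medians without these. The medians lie between −0.10 and 0.25, and the highest ventricular triangle is Gabrb2, with 0 to 4 control counts.

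The chamber by genotype test called 0 of 57 tested pathway genes by edgeR, where 10 had an unadjusted p under 0.05, as had 12.3% of all genes tested. DESeq2 called 3, Slc25a13 with a smaller rise in ventricles (difference of log2 fold changes −0.43 ± 0.12 SE, adjusted P value 0.019), and Ass1 (0.59 ± 0.19, 0.049) and Asl (0.59 ± 0.18, 0.028), which encode successive enzymes of arginine synthesis, the first of which uses aspartate.

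The genes next to Rimkla and Abat on the chromosome were not called in either chamber. Around Rimkla these were Ppcs, Ccdc30, Frg2f1 and Foxj3. Foxj3, the most abundant of them, was at 42.9 CPM in control atria and 42.4 CPM in CUG960 atria. Around Abat they were Mettl22, Tmem114, Tmem186 and Pmm2. Tmem114 had no counts and was not tested, and Pmm2, which encodes a phosphomannomutase, had a ventricular change of −0.50 (adjusted P value 0.013) that was under the fold change limit. The libraries were stranded, but whether the counting used strand is not given in the sources used here, so reads from a gene on the other strand could have been counted. Zmynd12, on the other strand of Rimkla, was listed with 0 to 6 counts in each library. Gm8430 overlaps Rimklb and had 32 to 64 counts, and Aldh5a1 overlaps a pair of RIKEN-named genes on the other strand with 16 to 48 and 49 to 109 counts. No stretch of 100 bases of a member's transcripts was found in another gene.

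The genes whose log2 CPM followed Rimkla most closely over the 12 libraries were taken by Pearson's r among 13064 genes. They were Ppp2r1b (0.995), a scaffold subunit of protein phosphatase 2A, Erc2 (0.982), a protein of the presynaptic active zone, Sec61a2 (0.981), a translocon subunit, Ints10 (0.975), an Integrator subunit, and Smpd4 (0.974), a sphingomyelinase. Erc2 had mean levels of 1.25 and 5.54 CPM in control and CUG960 atria and 0.525 and 5.80 CPM in ventricles. For Abat they were Syn2 (0.981), which encodes a synapsin, Acss3 (0.972), an acyl-CoA synthetase, Aass (0.970), which starts lysine degradation, Zfp385b (0.969) and Ptprf (0.965), a receptor phosphatase. Syn2 was at 21.3 and 51.8 CPM in control and CUG960 atria and 4.15 and 34.5 CPM in ventricles. Between Rimkla and Abat r was 0.869, rank 140 for Rimkla and 138 for Abat, which restates in part that both were chosen for a rise in ventricles. The points share 6 mice and 4 groups, and by Spearman's rho only 1 of 5 genes stayed among the closest 5 for Rimkla and 0 of 5 for Abat.

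Whole chambers were sequenced, in which a change in RNA per cell and a change in the share of a cell type cannot be told apart. Summed markers of other cells were therefore set beside the members. Cardiomyocyte markers summed to 40915 and 43355 CPM in control and CUG960 atria and 48499 and 50442 CPM in ventricles, with Myh6 the most abundant. Without Myh6 the direction turned, and the other 5 summed to 15413 and 13446 CPM in atria and 25280 and 22782 CPM in ventricles. Neuronal markers, 10 genes, summed to 15.5 ± 3.10 and 14.2 ± 1.02 CPM in atria and 28.7 ± 1.51 and 34.4 ± 5.30 CPM in ventricles (SD, n = 3). Uchl1, the most abundant, was at 7.78 and 10.1 CPM in atria and 14.3 and 25.5 CPM in ventricles, and Snap25 had at most 3 counts in every library. Without Uchl1 the other 9 summed to 7.77 and 4.09 CPM in atria and 14.4 and 8.96 CPM in ventricles, lower in CUG960 mice in both chambers. Counted without genes that met the filter in 1 genotype only, 1 of 5 neuronal markers was called lower in atria, and of 3 in ventricles 1 was called higher and 1 lower.

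Schwann cell markers summed to 65.6 and 49.6 CPM in atria and 24.6 and 19.0 CPM in ventricles. Adipocyte markers summed to 155 and 117 CPM in atria and 583 and 384 CPM in ventricles, with Fabp4 the most abundant, and 3 of the 5 counted were called lower in CUG960 ventricles, where 1.73% of all genes were. Without Fabp4 the other 6 summed to 12.9 ± 10.4 and 6.22 ± 3.36 CPM in atria (SD, n = 3). In ventricles they summed to 7.16 ± 0.846 and 2.18 ± 1.42 CPM, so the higher ventricular sum was that of Fabp4. Brown adipocyte markers were at 9.66 and 8.84 CPM in atria and 21.5 and 16.2 CPM in ventricles, and skeletal muscle markers at 2.77 and 1.72 CPM and 1.05 and 1.24 CPM. Fibroblast markers summed to 1940 and 1636 CPM in atria and 1174 and 1151 CPM in ventricles. Endothelial markers summed to 814 and 632 CPM and 768 and 580 CPM, and macrophage markers to 398 and 324 CPM and 139 and 133 CPM. In CUG960 mice the atrial cardiomyocyte sum was 21242 CPM in atria and 212 CPM in ventricles, and the ventricular one was 1267 and 17975 CPM. That ventricular sum was mostly Myh7 in atria, at 1059 CPM in controls and 1249 CPM in CUG960 mice. Myl2 (18.0 and 9.67 CPM) and Myl3 (11.9 and 8.16 CPM) were lower in CUG960 atria, and Irx4 was almost absent there. The atrial sum in ventricles was mostly Nppa, at 62.4 CPM in controls and 154 CPM in CUG960 mice. In atria the other calls were lower ones, of 2 endothelial, 2 skeletal muscle, 1 Schwann cell and 1 fibroblast marker. In ventricles 1 Schwann cell and 1 cardiomyocyte marker were called lower, and 1 atrial cardiomyocyte marker higher. The part of these markers in the values of the 7 genes was not tested.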

How the data were processed

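The authors prepared poly(A)-selected, stranded libraries and, per the labels and the submitters' processing notes, estimated counts with RSEM 1.3.1 on GRCm38 (mm10). The deposited table holds expected counts per gene, 1 column per library, not scaled for library size. All values were whole, so rounding changed none, and 0 columns were left unused. Repeated symbols (92) were kept apart.

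Genes were filtered by filterByExpr, scaled by TMM and compared by the quasi-likelihood test of edgeR 4.0.16 in R 4.3.3, with Benjamini-Hochberg adjustment over all genes tested. Genes with adjusted P values below 0.05 that changed 1.5-fold or more were called, and the chamber by genotype difference had no fold limit. The self-test ran on simulated data. Levels per kilobase used union exon lengths of GENCODE M21. Correlations used log2 CPM (prior count 2), and promoters came from RefSeq. DESeq2 1.42.0, other scalings, filters and fold change limits, a single fit of 12 libraries and leaving out each mouse were alternatives. Counting pathway and marker genes without those that met the filter in all libraries of 1 genotype only was chosen after seeing the data. An exact two-sided permutation test of 3 against 3 mice cannot go under 0.1 and was not used.

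The members and lists were chosen with earlier results of these data known, and 1 gene of the lists is not reported here. Named genes were the 7 members, pathway genes called in at least 1 chamber and the most abundant gene of each list, the 2 nearest protein-coding genes on each side of Rimkla and Abat, and the 5 genes most correlated with each. The rule does not cover Gad1, Gad2, Csad, Ass1, Asl, single marker genes and overlapping genes, chosen after seeing their values.

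Atria and ventricles with the same mouse number came from the same animal. After subtraction of group means, the correlation across genes was 0.030 to 0.135 between the chambers of 1 mouse and −0.141 to 0.054 between those of different mice. Replicates are separate mice, and none agreed within counting noise. Depth limits the genes with few counts, and for the others the number of mice limits precision. Floors cover counting error only.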

Additional observations from a re-analysis of the deposited data

How the results depend on the processing

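Rimkla and Abat kept their direction under each alternative, and in atria Rimkla kept its call under all of them. The call of Abat in atria was lost where a log2 fold change of at least 1.5 was required, since its value was 0.68, which left 1 member called. That limit also gave 216 genes in atria, 199 in ventricles and 2233 between chambers of controls, and 1, 2 and 8 pathway genes. Without a fold change limit the counts were 2573, 1680 and 9726 genes in place of 969, 804 and 6098, and 15 and 13 pathway genes in atria and ventricles in place of 6 and 6, where each 6 includes a gene that met the filter in 1 genotype only (Gadl1 in atria, Gabrb2 in ventricles). DESeq2 gave 660 genes with a chamber by genotype difference in place of 253, and 3 pathway genes in place of 0, and the cause was not tested.

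Fits without 1 mouse gave 679 to 897 genes in atria, 558 to 737 in ventricles and 74 to 131 for the chamber by genotype difference, with 3 to 6 pathway genes in atria and 2 to 5 in ventricles, all of them on fewer samples. The sign changed for Folh1 (−0.11 to 0.19) in atria, and for the chamber by genotype difference of Aldh5a1 (−0.0098 to 0.28). Neither passed the threshold. With the mouse as a replicate block, 6113 genes differed between chambers of controls, and the pairing changed no call of a member or of the count of pathway genes. Gabrr1 lost its atrial call in the single fit of all libraries (adjusted P value 0.16), and without a filter on low counts the ventricular call of Acy3 (log2 fold change −0.58) was lost. Levels per kilobase depend on the length used, and with coding length Abat stood at 90.9 and Rimkla at 1.44 CPM per kb in control atria. Depth limits Rimklb and Folh1 in ventricles, where a difference was not detectable.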
